A study of Homo sapiens with 6 samples.

Results

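The 7 human genes that encode phosphofructokinase subunits (PFKL, PFKM and PFKP) and the bifunctional PFKFB enzymes (PFKFB1, PFKFB2, PFKFB3 and PFKFB4) were followed in an HNSCC cell line under hypoxia. They were taken by gene symbol from the 21776 genes of the deposited count table, and all 7 had a row there. RNA sequencing compared SCC25 cells, an established wild-type line from an oral squamous cell carcinoma, after 12 h in 1% O2 with 5% CO2 and balanced nitrogen (hypoxia, 3 libraries) with the same line after 12 h in air with 5% CO2 (normoxia, 3 libraries). All libraries came from 1 line grown in DMEM/F12 with serum, and nothing in the labels says that the replicates of a condition were separate cultures, so the p-values measure the spread between these libraries, which may be technical. Reads assigned to genes numbered 30186813, 36076088 and 32272716 for hypoxia (replicates 1, 2 and 3) and 37278703, 29637189 and 29981208 for normoxia, in the same order, here and for all values by library.

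Phosphofructokinase (PFK-1) adds a phosphate to fructose 6-phosphate and is the committed step of glycolysis. The active enzyme is a tetramer of liver (PFKL), muscle (PFKM) and platelet (PFKP) type subunits. The PFKFB enzymes make fructose 2,6-bisphosphate, a potent activator of PFK-1, with one domain and break it down with another, and PFKFB3 is known for a strong excess of the first activity. PFKFB3 and PFKFB4 are known targets of the hypoxia-inducible factors, which bind DNA at the cores ACGTG and GCGTG.

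To show where such cores lie, the 250 bases before each RefSeq transcript start were searched on both strands for the cores ACGTG and GCGTG. The first of them overlaps itself on the opposite strand where the letters read CACGTG. Of 35116 promoter windows of this length, 43.2% held at least 1 of them, 18.5% held ACGTG and 32.2% held GCGTG. Among the genes described here, a core was present in 2 of 2 windows of PFKFB3, 1 of 1 of PFKFB4, 1 of 1 of PFKL, 2 of 4 of PFKP, 1 of 7 of PFKM and 0 of 2 of PFKFB1, and PFKFB2 was not searched. A match is a match of letters and says nothing about binding in these cells, which was not measured. The stretches below belong to the 4 genes that passed the test for higher levels under hypoxia, with the cores in capitals (RefSeq, GRCh38.p14, 5′ to 3′ on the strand of the gene). Of 1 window per gene, each is the longest stretch that holds a core and no exon base of any GENCODE v29 gene, and for PFKFB3 and PFKP it is from the window that held ACGTG. The other window of PFKFB3 with a core held 1 GCGTG and that of PFKP held 3, and they are not shown. They lie at chr10:6202694-6202865 (plus strand) for PFKFB3, chr3:48556924-48556982 (minus strand) for PFKFB4, chr21:44299803-44300050 (plus strand) for PFKL and chr10:3068939-3069188 (plus strand) for PFKP.
PFKFB3: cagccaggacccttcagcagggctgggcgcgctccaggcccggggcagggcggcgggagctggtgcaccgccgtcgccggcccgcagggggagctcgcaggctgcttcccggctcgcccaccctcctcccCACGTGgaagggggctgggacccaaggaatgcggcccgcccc
PFKFB4: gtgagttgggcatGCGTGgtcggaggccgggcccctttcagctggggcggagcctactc
PFKL: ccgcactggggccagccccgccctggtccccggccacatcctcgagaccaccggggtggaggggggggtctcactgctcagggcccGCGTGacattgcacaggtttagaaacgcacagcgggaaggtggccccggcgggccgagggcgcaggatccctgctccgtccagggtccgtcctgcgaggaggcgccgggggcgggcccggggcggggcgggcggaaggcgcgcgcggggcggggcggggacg
PFKP: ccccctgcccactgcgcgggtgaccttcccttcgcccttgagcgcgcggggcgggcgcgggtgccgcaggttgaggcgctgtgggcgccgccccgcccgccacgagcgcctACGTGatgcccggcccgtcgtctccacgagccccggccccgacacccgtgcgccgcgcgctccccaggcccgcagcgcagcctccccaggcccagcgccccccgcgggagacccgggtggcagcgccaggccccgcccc
In PFKFB3 the core was read on both strands, as the palindrome CACGTG, from base -108 to -103 before the start of this transcript. The PFKFB4 stretch held GCGTG from -166 to -162, PFKL held GCGTG from -164 to -160, and PFKP held ACGTG from -139 to -135.

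As a check of the labels, 4 genes with a known response to hypoxia were read first. CA9, NDRG1, VEGFA and EGLN3 all rose (log2-fold changes of 2.71, 5.40, 2.80 and 6.69, edgeR's quasi-likelihood test with Benjamini-Hochberg adjustment over 14255 genes). Normoxia replicate 3 stood apart in these genes. NDRG1, a stress-induced gene, was at 163, 140 and 409 CPM in the normoxia libraries (CPM being counts relative to a library total adjusted by TMM), and CA9, a carbonic anhydrase, at 32.2, 27.3 and 67.7 CPM. Log2-fold changes, shares and ratios of the PFK and PFKFB genes are therefore also given without that library. The squamous markers KRT5 (111 CPM under hypoxia and 126 under normoxia) and TP63 (68.3 and 62.7 CPM) were present, whereas KRT14, a basal keratin, had 1 count in all 6 libraries together. The leukocyte markers PTPRC and CD3E had at most 2 counts in any library. CD68, which is also found outside leukocytes, was at 31.0 CPM under hypoxia and 33.1 under normoxia. ACTA1, the 1 of 3 muscle markers with a row, had at most 7.

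On the scale of FPKM (reads relative to gene length and library total, which lets genes be compared), PFKP was the most abundant of the 7 genes in every library. Under normoxia, PFKP was followed by PFKL, PFKM, PFKFB3, PFKFB4, PFKFB2 and PFKFB1, and the ranges of neighbouring genes did not overlap. Under hypoxia the order behind PFKP changed, with PFKL, PFKFB3 and PFKFB4 at overlapping levels, followed by PFKM, PFKFB2 and PFKFB1. PFKFB4 thus went from 5.25 ± 0.953 FPKM (SD, n = 3), below PFKM at 17.3 ± 0.995, to 69.0 ± 3.83, above PFKM at 16.7 ± 0.558. Parts of this order depend on the gene lengths behind the FPKM. With merged exon lengths of GENCODE v29, PFKFB3 (13.2 FPKM) was above PFKM (12.0) under normoxia, and PFKL (33.2) was below PFKFB3 (61.7) and PFKFB4 (67.3) under hypoxia. PFKP was highest with both sets of lengths.

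Of the 7 genes, 6 passed edgeR's filter on low counts and were tested, and PFKFB1 was not. PFKL, PFKP, PFKFB3 and PFKFB4 rose at an adjusted p-value under 0.05, none fell, and PFKM and PFKFB2 did not pass. This is 4 of 6 genes higher where 39.2% of all 14255 tested genes were higher and 38.5% lower. For the same 4 genes, all hypoxia libraries lay above all normoxia libraries, which 40.6% of all tested genes also showed. A log2-fold change over 1 was reached by PFKFB3 and PFKFB4, that is 2 of 6, against 19.9% of all tested genes. The 6 genes had a median log2-fold change of 0.80, and all tested genes one of 0.02. These are levels of RNA in bulk cultures, in which a change in the number of expressing cells and a change in RNA per cell cannot be told apart.

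Among the PFK-1 subunits, PFKP and PFKL rose by similar amounts. PFKP, the platelet-type subunit (GENCODE v29, GRCh38, chr10:3066333-3137712), was at 818, 820 and 829 CPM under hypoxia and at 452, 463 and 499 CPM under normoxia. All 3 hypoxia libraries lay within a narrow band far above the normoxia libraries. The log2-fold change was 0.80 (standard error 0.052, adjusted p = 1.96e-10 by edgeR), a 1.74-fold increase, and 0.83 without normoxia replicate 3.

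PFKL, the liver-type subunit (chr21:44300051-44327376), was at 299, 283 and 293 CPM under hypoxia and at 159, 149 and 192 CPM under normoxia. The conditions did not overlap, and normoxia replicate 3 was the highest of the normoxia libraries. The log2-fold change was 0.81 (standard error 0.073, adjusted p = 1.82e-08 by edgeR), a 1.75-fold increase, and 0.90 without normoxia replicate 3.

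PFKM, the muscle-type subunit (chr12:48105139-48146404), was at 86.7, 80.1 and 82.7 CPM under hypoxia and at 90.5, 93.6 and 82.7 CPM under normoxia. The ranges overlapped through normoxia replicate 3. PFKM had a log2-fold change of -0.098 with a 95% interval from -0.21 to 0.019 (adjusted p = 0.142 by edgeR), so a rise of the size seen for PFKP and PFKL lay outside the interval. PFKM passed as lower without normoxia replicate 3, with a log2-fold change of -0.16 (adjusted p = 0.0115 by edgeR), and when genes with low counts were kept in the fit (-0.14, adjusted p = 0.0486 by edgeR). In the latter setting, the median shift of log2-fold changes over the shared genes was -0.0408, about as much as the shift of PFKM. Its exons share 628 bases with SENP1 on the opposite strand, a gene at 22.8 CPM under hypoxia and 39.9 CPM under normoxia. Whether the counting used the strand is not given in the sources used here, so reads in that stretch cannot be assigned.

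The summed FPKM of the 3 PFK-1 genes was 293, 294 and 292 under hypoxia and 167, 162 and 182 under normoxia, a ratio of means of 1.72. Each gene's share of this sum gives the make-up of the subunit mRNA. PFKP held 68.5%, 69.8% and 69.4% under hypoxia and 65.7%, 67.0% and 65.4% under normoxia, a small difference of 3.18 percentage points with no overlap. The share of PFKM was 5.92%, 5.56% and 5.64% under hypoxia and 10.7%, 11.0% and 8.85% under normoxia, so all hypoxia libraries were below all normoxia libraries (difference of -4.49 percentage points). PFKL held 25.1% ± 0.469 and 23.8% ± 1.87 (SD, n = 3), and its libraries overlapped (difference 1.31 percentage points, exact permutation p = 0.4, two-sided). That difference was 0.435 percentage points without normoxia replicate 2 and 2.29 without normoxia replicate 3. Without the latter library the differences were 2.88 percentage points for PFKP and -5.17 for PFKM. For PFKP and PFKM the exact permutation p was 0.1, the smallest that this test can give for 3 libraries against 3, so it cannot reach 0.05.

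Among the PFKFB genes, PFKFB4 and PFKFB3 rose most and PFKFB2 did not pass the test. PFKFB4, an isoenzyme known from testis and from tumour cells (chr3:48517684-48562015), was at 390, 424 and 399 CPM under hypoxia and at 31.5, 26.4 and 37.4 CPM under normoxia. The hypoxia libraries lay close together and no normoxia library came near them. The log2-fold change was 3.67 (standard error 0.091, adjusted p = 4.25e-15 by edgeR), a 12.7-fold increase (3.78 without normoxia replicate 3), which placed PFKFB4 9th by p-value among the tested genes and 290th by log2-fold change. A stretch of 289 exon bases is shared with UCN2 on the same strand, and UCN2 was at 6.04 and 2.91 CPM, far below PFKFB4.

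PFKFB3, the isoenzyme with the strongest kinase activity (chr10:6144934-6254644), was at 330, 394 and 389 CPM under hypoxia and at 79.6, 85.5 and 81.3 CPM under normoxia. Hypoxia replicate 1 was the lowest of the hypoxia libraries and still far above normoxia. Its log2-fold change was 2.18 (standard error 0.068, adjusted p = 3.63e-14 by edgeR), a 4.52-fold increase, and 2.15 without normoxia replicate 3.

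PFKFB2, known as the heart isoenzyme (chr1:207034366-207081024), was at 32.0, 29.6 and 30.7 CPM under hypoxia and at 31.1, 26.5 and 28.5 CPM under normoxia. The libraries of the conditions overlapped. PFKFB2 had a log2-fold change of 0.097 with a 95% interval from -0.054 to 0.25 (adjusted p = 0.256 by edgeR; 0.075 without normoxia replicate 3), and among the settings run it passed as higher in 1, where at least 10 counts were required in every library (0.17, adjusted p = 0.0470 by edgeR). With that setting, the log2-fold changes of the 12665 genes in both fits were larger by 0.0775 in the median. Its exons share 315 bases with YOD1 on the opposite strand, at 20.3 CPM under hypoxia and 30.7 under normoxia.

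PFKFB1, known as the liver isoenzyme (chrX:54932961-54998534), had 11, 8 and 15 counts under hypoxia and 5, 7 and 8 under normoxia. The ranges met at 8 counts and the gene did not pass the filter on low counts with all 6 libraries. With no filter, its log2-fold change was 0.64, smaller than its standard error of 0.70. It passed the filter when 1 of 4 libraries was left out, each time through hypoxia replicates 1 and 3, where its counts were highest. Its log2-fold change was then 0.39, 0.78 and 0.86 without normoxia replicates 1, 2 and 3, and 0.94 without hypoxia replicate 2. Because the gene entered through the hypoxia libraries, these values give no support for a rise. The adjusted p was between 0.155 and 0.582 by edgeR in these 4 fits. At this depth the fold change of PFKFB1 was imprecise, with standard errors from 0.58 to 0.70 in the edgeR fits above.

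**Figure D1:**
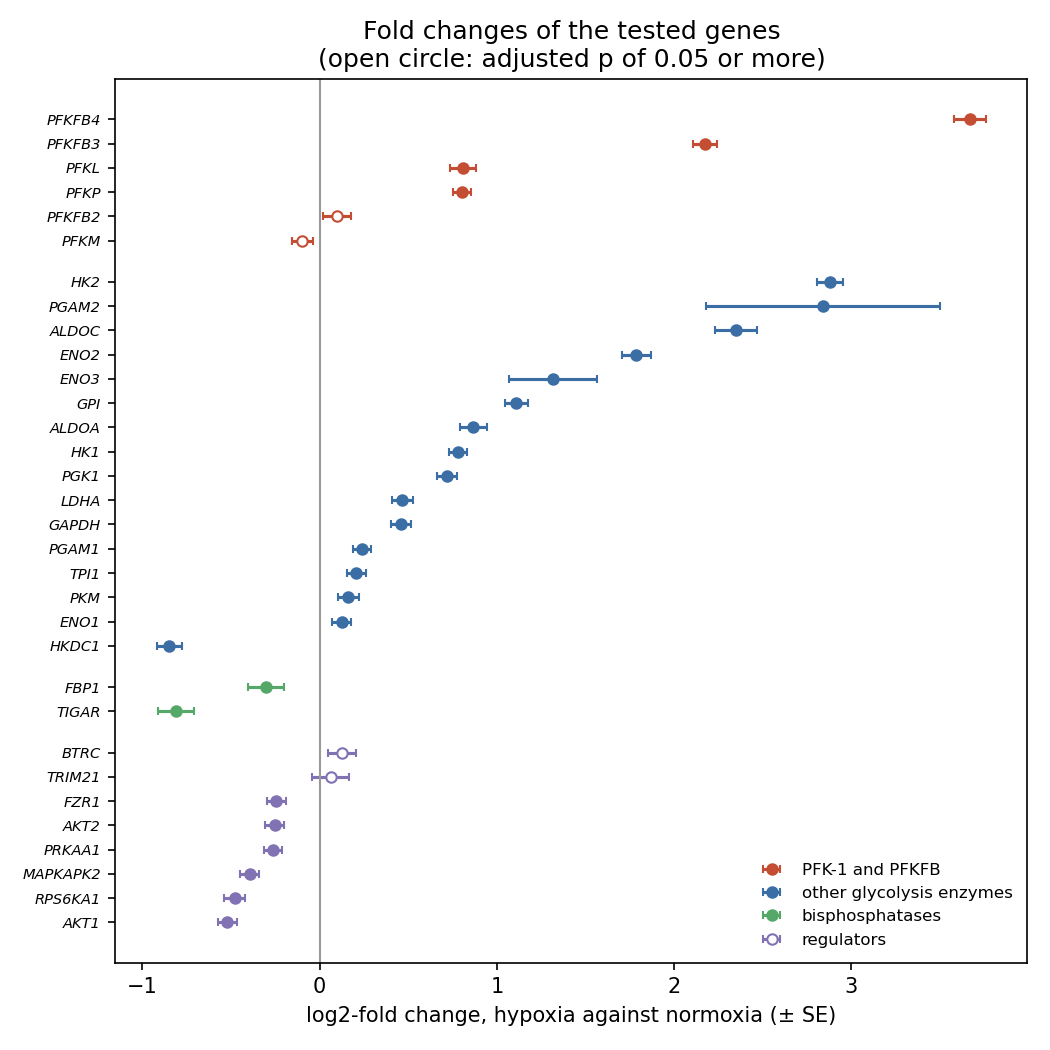
Log2-fold change, hypoxia over normoxia, with its standard error for the tested PFK and PFKFB genes and for other genes of the pathway, with open circles for genes at an adjusted p-value of 0.05 or more. PFKFB4 (3.67) and PFKFB3 (2.18) lie far to the right of PFKP (0.80) and PFKL (0.81), and PFKM and PFKFB2 lie close to 0.

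The summed FPKM of the 4 PFKFB genes was 131, 151 and 143 under hypoxia and 22.7, 21.8 and 23.5 under normoxia, a ratio of means of 6.24. As a percentage of the PFK-1 sum it was 44.7%, 51.6% and 48.9% under hypoxia and 13.6%, 13.5% and 12.9% under normoxia. The libraries of the conditions did not overlap in this percentage, for which no test was run. It compares gene levels, not the amount or activity of the proteins, which the libraries do not measure.

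The make-up of the PFKFB mRNA differed between the conditions, with a larger share of PFKFB4 and smaller shares of PFKFB3 and PFKFB2 in all hypoxia libraries. PFKFB4 held 50.6%, 48.5% and 47.2% of the PFKFB sum under hypoxia and 23.3%, 19.6% and 26.3% under normoxia. PFKFB3 held 47.2%, 49.8% and 50.9% under hypoxia and 64.9%, 70.1% and 63.2% under normoxia, so its share was lower under hypoxia although its level was higher. The share of PFKFB2 was 2.12%, 1.72% and 1.85% under hypoxia and 11.7%, 10.0% and 10.2% under normoxia, at a level that did not pass the test. The shares of these 3 genes had differences of 25.7, -16.8 and -8.75 percentage points and an exact permutation p of 0.1 each. Without normoxia replicate 3 the differences were 27.3, -18.2 and -8.95 percentage points. In shares of reads, not per length, the difference was -16.3 percentage points for PFKFB2. PFKFB1 held under 1% of the sum in every library, with a difference of -0.161 percentage points, or -0.138 without normoxia replicate 3.

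The shares depend on the gene lengths behind the FPKM. With the merged exon lengths of GENCODE v29 in their place (8926 bases in place of 4035 for PFKL), the share of PFKL was 15.3% under hypoxia and 14.5% under normoxia and that of PFKP 79.4% and 76.0%. PFKFB4 then held 51.0% and 24.1%, PFKFB3 46.6% and 62.4%, and PFKFB2 2.33% and 13.1%. The differences in share between the conditions had the same direction with both sets of lengths.

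Ratios of a pair of genes within 1 library need no scaling between libraries, and 4 pairs were compared. PFKFB4 over PFKFB3 was 1.07, 0.974 and 0.928 under hypoxia and 0.359, 0.280 and 0.416 under normoxia, without overlap. The difference in the log2 ratio was 1.51 (standard error 0.18, exact permutation p = 0.1, adjusted over the 4 pairs 0.133). PFKFB2 over PFKFB3 differed by -2.07 (standard error 0.15) and PFKM over PFKL by -0.91 (standard error 0.16), both without overlap and with the same exact permutation p of 0.1. PFKP over PFKL was 2.68, 2.83 and 2.77 under hypoxia and 2.79, 3.04 and 2.54 under normoxia. These ranges overlapped, and the difference in the log2 ratio was -0.012 (standard error 0.078, exact permutation p = 0.9). The level of each ratio depends on the gene lengths behind the FPKM, whereas the difference in the log2 ratio does not. With GENCODE v29 exon lengths, PFKP and PFKL were at 173 and 33.2 FPKM under hypoxia and at 95.9 and 18.4 under normoxia. Without normoxia replicate 3 the differences were 1.64 for PFKFB4 over PFKFB3, -2.06 for PFKFB2 over PFKFB3, -1.07 for PFKM over PFKL and -0.078 for PFKP over PFKL. The last of these was on the other side of 0 without normoxia replicate 2 (0.051) and without hypoxia replicate 1 (0.0095).

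The other enzymes of glycolysis were read as a list of 22 genes, of which 18 had a row and 16 were tested. Of the 16, 15 rose and 1 fell, beside 39.2% of all tested genes higher and 38.5% lower. Their median log2-fold change was 0.75, beside 0.02 for all tested genes. With other scalings or filters, DESeq2, the replicate number as a block or a library left out, 13 to 15 genes of the list rose. The largest increases were those of HK2, a hexokinase (2.88, standard error 0.073), PGAM2, a phosphoglycerate mutase (2.84, standard error 0.66), and ALDOC, an aldolase (2.35, standard error 0.12). The log2-fold change of PFKFB4, 3.67, was above all 3, a difference that was not tested. PGAM2 had only 26, 20 and 17 counts under hypoxia and 0, 5 and 3 under normoxia, and it passed the filter on low counts through the hypoxia libraries, so its place in the list's count is uncertain. The smallest were those of ENO1, an enolase (0.12, adjusted p = 0.0428 by edgeR, libraries overlapping), and PKM, pyruvate kinase (0.16, adjusted p = 0.0149 by edgeR). ENO1 lost its call when each of 4 of the 6 libraries was left out, and PKM for 3 of the 6, and ENO1 also lost it without the filter on low counts and with the replicate number as a block. HKDC1, a hexokinase-like gene, fell by 0.85.

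Of 3 enzymes that remove fructose bisphosphates, 2 were tested and both fell, beside 38.5% of all tested genes lower. TIGAR, a fructose 2,6-bisphosphatase, was at 13.0, 12.6 and 12.1 CPM under hypoxia and at 23.1, 24.0 and 19.0 CPM under normoxia, without overlap. The log2-fold change was -0.81 (standard error 0.10, adjusted p = 1.06e-06 by edgeR). FBP1, the fructose 1,6-bisphosphatase of gluconeogenesis, fell by 0.30 on the log2 scale (standard error 0.10, adjusted p = 0.0120 by edgeR), a call lost without hypoxia replicate 2 and where at least 10 counts were required. FBP2 had at most 3 counts in any library.

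Of 9 kinases and ubiquitin ligase subunits known to act on the PFK or PFKFB proteins, 8 were tested, 6 fell and none rose, beside 38.5% of all tested genes lower and 39.2% higher. The kinases AKT1 (-0.52), RPS6KA1 (-0.48), MAPKAPK2 (-0.40), PRKAA1 (-0.26) and AKT2 (-0.25) were lower, as was FZR1 (-0.24), a subunit that directs PFKFB3 to degradation. AKT1, which phosphorylates PFKFB2 and PFKFB3, went from 250 ± 4.73 to 175 ± 9.44 CPM (SD, n = 3). BTRC (0.13) and TRIM21 (0.062), ubiquitin ligase components, did not pass (adjusted p = 0.158 and 0.601 by edgeR). BTRC passed as higher where at least 10 counts were required in every library. In that setting, the median shift of log2-fold changes over the genes in both fits was 0.0775. PRKAA2 had at most 1 count in any library.

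Genes with the most similar pattern were sought among 11568 tested genes by the root mean square difference of log2 CPM over the 6 libraries, each gene taken relative to its own normoxia mean. With 2 conditions, a near gene is thus mainly one with a similar log2-fold change. The 3 genes nearest to PFKFB3 had 2.15 to 2.20, those nearest to PFKFB4 3.55 to 3.66 and those nearest to PFKP 0.78 to 0.83. Shared regulation was not tested. Nearest to PFKFB3 were DUSP1, a phosphatase of MAP kinases (0.036), FAM13A (0.048) and MKNK2, a kinase downstream of MAP kinases (0.086). Nearest to PFKFB4 were ULK1, an autophagy kinase (0.070), SYNPO, which binds actin (0.082), and BHLHE40, a transcriptional repressor (0.092). Nearest to PFKP were FKBP8, an immunophilin (0.020), HK1, a hexokinase (0.023), and SCARB2, a lysosomal membrane protein (0.025).

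A marker of another cell type also moved between the conditions. COL1A1, a fibroblast collagen, was at 18.0 CPM under hypoxia and 3.76 under normoxia, and its log2-fold change was 2.26. The fibroblast list of 3 genes summed to 21.1, 18.4 and 16.8 CPM under hypoxia and to 3.95, 2.97 and 5.58 CPM under normoxia, most of it COL1A1. The other fibroblast markers were low, with COL1A2 at 0 to 9 counts in any library. PDGFRB had 24, 19 and 20 counts under hypoxia and 13, 7 and 11 under normoxia, without overlap. Its log2-fold change was 0.96 (adjusted p = 0.0507 by edgeR). The endothelial marker PECAM1 was at 5, 9 and 10 counts against 2, 0 and 0. VWF, also endothelial, was at 10, 9 and 4 against 0 in every normoxia library. The part of these fibroblast and endothelial markers in the PFK and PFKFB results was not tested. The summed squamous markers were at 648, 647 and 651 CPM under hypoxia and at 669, 680 and 738 CPM under normoxia. Of the 5 tested, KRT17 (1.06) and DSP (0.20) rose, SFN (-0.80) and KRT5 (-0.18) fell, and TP63 (0.12) did not pass, all as log2-fold changes.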

How the data were processed

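The authors deposited whole-number counts of reads on 21776 genes, without normalization, and FPKM of the same genes. The FPKM of 21775 genes, including the 7 described, could be recomputed from the counts, a gene length and the library total within 0.01%. The labels name a SMARTER mRNA kit; the aligner, the counting tool and the use of strand are not given in the sources used here. The submitters' processing notes list the mouse builds GRCm38 and mm10, although the genes carry human symbols, so coordinates were taken from GENCODE v29 and RefSeq (GRCh38.p14) and not from the files. The labels name SCC25, and a legend of the study names SCC9.

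The main test on the counts was edgeR's quasi-likelihood F test (edgeR 4.0.16, R 4.3.3; TMM, filterByExpr, condition as the only term) and adjusted over 14255 genes. A standard error is the log2-fold change divided by the square root of F. Shares and ratios used the deposited FPKM and two-sided exact permutation tests (scipy 1.17.1). Alternatives were DESeq2 1.42.0 (size factors and Wald test), other filters, a replicate block, limma 3.58.1 on log2(FPKM + 1), shares of reads, and each library left out. The use of GENCODE lengths was chosen after seeing the data. Totals of 29637189 to 37278703 counts leave genes with a few counts, such as PFKFB1, without a precise fold change. No pair of replicates agreed within sampling noise (5.11 to 11.5 for the chi-square per gene). The test was run first on simulated counts, and no result of that run is given here.

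The members, lists and tests were chosen with earlier results of these data known. The genes named are the 7 members, the 3 largest and 3 smallest changes of the glycolysis list, the bisphosphatases, the regulators, the label check and cell type markers, and the 3 genes nearest in pattern to PFKFB3, PFKFB4 and PFKP (mean log2 CPM of at least 1). PFKP-DT was named after its values were seen.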

Additional observations from a re-analysis of the deposited data

How the results depend on the processing

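PFKL, PFKP, PFKFB3 and PFKFB4 kept their call and direction under every alternative run, except that PFKL and PFKP do not reach a log2-fold change of 1 where that was required. With each library left out in turn, their log2-fold changes ranged from 0.73 to 0.90, 0.76 to 0.83, 2.13 to 2.25 and 3.55 to 3.78. Those of PFKM ranged from -0.16 to -0.069 and of PFKFB2 from 0.034 to 0.15. Requiring a log2-fold change beyond 1 left 4338 genes called of 11090, and 2 of the 4 PFK and PFKFB genes. In shares of reads, not per length, the difference was -16.3 percentage points for PFKFB2 and -11.6 for PFKFB3. With GENCODE v29 exon lengths it was -10.7 for PFKFB2 and -0.356 for PFKFB1, which was -0.161 with the deposited lengths. The cause of these shifts is the lengths themselves, since no read count changed.

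No sign of pairing by replicate number was seen, as deviations of same-numbered libraries correlated at 0.018, -0.069 and 0.001. With 3 libraries per condition this cannot show that the libraries were unpaired. With the replicate block, 10875 genes were called, including the same number of PFK and PFKFB genes, 4, and ENO1 lost its call. The depth limits PFKFB1 and FBP2, and the exact permutation tests of shares and ratios cannot go below a p of 0.1 with 3 libraries per condition.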

Other observations

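PFKP-DT, a transcript named as divergent from PFKP and singled out after its values were seen, had 50, 107 and 73 counts under hypoxia and 13, 1 and 0 under normoxia. Its level was 2.25 ± 0.620 CPM under hypoxia and 0.128 ± 0.192 under normoxia (SD, n = 3). It passed the filter on low counts through the hypoxia libraries, 13 of its normoxia counts came from 1 library, and no test is given.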
